A study of Caenorhabditis elegans with 4 samples.

Results

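The genes of translation initiation and elongation in Caenorhabditis elegans were examined as places where the tagged protein K09A11.1 was recovered by chromatin immunoprecipitation with sequencing (ChIP-seq). The set holds 40 of the 19973 protein-coding genes on the nuclear chromosomes of assembly WBcel235 (ce11). They are the genes whose names begin with eif-, iff-, ife-, ifg-, inf- or eef-, a rule that reads names alone, although the set was picked for study with earlier results of these data known. Subunits of the same factors under other names, such as egl-45 and cif-1 of eIF3, are therefore not members. The embryos were hermaphrodite, at the late embryonic stage and of unknown age, and were used as whole organisms. Their strain, OP372, has the genotype unc-119(tm4063) III; wgIs372, in which wgIs372 is a stably expressed transgene for K09A11.1 with GFP and FLAG at its C terminus. The promoter that drives it is not given in the sources used here. Chromatin was sonicated and precipitated with an antibody against GFP, in 2 biological replicates of 2 technical libraries each. All 4 libraries carry the same transgene and the same unc-119 allele, so there is no other group to set them against, and whole embryos mix all cell types in 1 value.

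Translation begins when eIF2, with GTP and the initiator tRNA, joins the small ribosomal subunit, where eIF1 and eIF1A help to select the start codon and eIF2B recharges eIF2 with GTP. The large complex eIF3 holds this assembly together, while eIF4E binds the mRNA cap, eIF4G bridges it to the ribosome and eIF4A unwinds the leader. During elongation eEF1A delivers aminoacyl-tRNA, the eEF1B subunits reload it with GTP, eEF2 moves the ribosome along, and eIF5A helps at stretches that are hard to translate. Every growing cell needs factors of these kinds, and for some of them the worm has separate genes for the germline and the soma.

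A thresholded peak lay in the promoter window of 6 of the 40 genes: iff-2, eef-1A.1, eif-3.C, eef-1A.2, eif-3.B and eif-1.A. The window ran from 1000 bp upstream to 200 bp downstream of each annotated 5' end, and a peak was counted by its summit. A thresholded peak is a region that the authors kept with IDR (irreproducible discovery rate), which asks how well ranks repeat between replicates. It is listed with a signal value that is the authors' own. Each of the 6 had the same rank in the thresholded list as in the list of both replicates merged. Down to rank 501, that of eif-1.A, the thresholded list thus followed the merged signal alone. A thresholded peak is therefore not read here as a check of that site in each replicate. The DNA under the summits is shown here for 5 of these genes and for eif-3.D, whose region had a signal just under the lowest one kept. Each line gives 101 bp centred on the summit of the pooled list, 5′ to 3′ on the strand of the gene, from the RefSeq copy of WBcel235. Capitals mark every match, on either strand and with overlaps joined, to 10 words of 6 bases that were commoner at all thresholded summits than beside them. They are the repeats GAGAGA and AGAGAG, the related AGAGAC and CGTCTC, the repeat CACACA with CGCACA, and the CG-bearing GCGCAC and CGCGCA, plus ACGCAG and GACGCA. They were picked from these same peaks, so a match in a thresholded peak is a description and no support for any site.

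The windows are chrII:8561394-8561494 on the minus strand for iff-2, chrIII:6972002-6972102 on the minus strand for eef-1A.1, chrX:7823284-7823384 on the plus strand for eef-1A.2, chrII:14795124-14795224 on the plus strand for eif-3.B, chrIV:4810439-4810539 on the plus strand for eif-1.A, and chrIII:8971803-8971903 on the minus strand for eif-3.D. They read as follows.
iff-2: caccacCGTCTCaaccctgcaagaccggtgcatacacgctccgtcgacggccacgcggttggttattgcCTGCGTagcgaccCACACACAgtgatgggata
eef-1A.1: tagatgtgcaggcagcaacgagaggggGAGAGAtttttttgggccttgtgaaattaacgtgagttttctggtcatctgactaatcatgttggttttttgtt
eef-1A.2: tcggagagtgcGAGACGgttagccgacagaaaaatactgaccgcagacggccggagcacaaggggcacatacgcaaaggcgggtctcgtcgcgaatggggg
eif-3.B: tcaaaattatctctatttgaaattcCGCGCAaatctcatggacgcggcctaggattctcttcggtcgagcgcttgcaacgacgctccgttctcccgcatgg
eif-1.A: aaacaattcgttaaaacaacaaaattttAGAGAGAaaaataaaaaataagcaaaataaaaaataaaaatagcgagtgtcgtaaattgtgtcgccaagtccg
eif-3.D: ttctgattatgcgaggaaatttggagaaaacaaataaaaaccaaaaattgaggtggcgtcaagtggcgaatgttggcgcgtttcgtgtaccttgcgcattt

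The words differed from gene to gene. The iff-2 window holds CGTCTC and also CTGCGT (the other strand of ACGCAG) and overlapping copies of CACACA. The eef-1A.2 window holds GAGACG, the other strand of CGTCTC, and this pair of genes were the only thresholded members with that word. GAGAGA was found in eef-1A.1 and eif-1.A, and CGCGCA in eif-3.B and eif-3.C. Of all 663 nuclear thresholded peaks, 22.2% hold GAGAGA, 14.8% CGTCTC and 14.2% CGCGCA. Over the 29974 nuclear regions of the pooled list the shares were 7.51%, 3.50% and 2.21% for the same words in that order. ACGCAG was in 14.9% of thresholded peaks and 2.89% of pooled regions, CACACA in 17.2% and 5.24%, AGAGAG in 18.3% and 6.26%, and GACGCA, which only eif-3.C held among the thresholded members, in 13.3% of thresholded peaks. The words AGAGAC and GCGCAC and also CGCACA were in none of the 6. Each of the 6 thresholded members held at least 1 of the 10 words, against 430 of all 663 peaks (64.9%). Among all 29 members with a pooled region 16 held a word and 13 held none, eif-3.D, eif-3.E and eef-1B.1 among them. The share of all pooled regions with at least 1 word was not computed, so the 16 have no like background.

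GC content was higher at most of these summits than 300 bp to either side. In the 101 bp at the summit it averaged 48.0% ± 13.0 over the 6 thresholded members and 33.1% ± 5.25 in windows 300 bp to either side (SD, n = 6 genes). It was higher at the summit in 5 of the 6. The iff-2 window had 60.4% against 24.8% beside it and that of eef-1A.2 61.4% against 33.7%. The exception was eif-1.A, with 26.7% at the summit and 30.7% beside it. In a finer profile of 51 bp windows, eif-1.A had 17.6% at the summit and 56.9% at 50 bp downstream of it. Over all 663 nuclear thresholded peaks the averages were 48.8% ± 7.84 at the summit and 36.3% ± 6.64 beside it (SD, n = 663 peaks), and 588 peaks (88.7%) were higher at the summit, so the members' values lie in the range of the whole list. The 29 members with a pooled region averaged 40.9% ± 10.8 at the summit and 36.1% ± 6.11 beside it (SD, n = 29 genes), with 18 higher at the summit. Base composition can change how well fragments are recovered and sequenced, and its part in the signal was not tested.

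**Figure D1:**
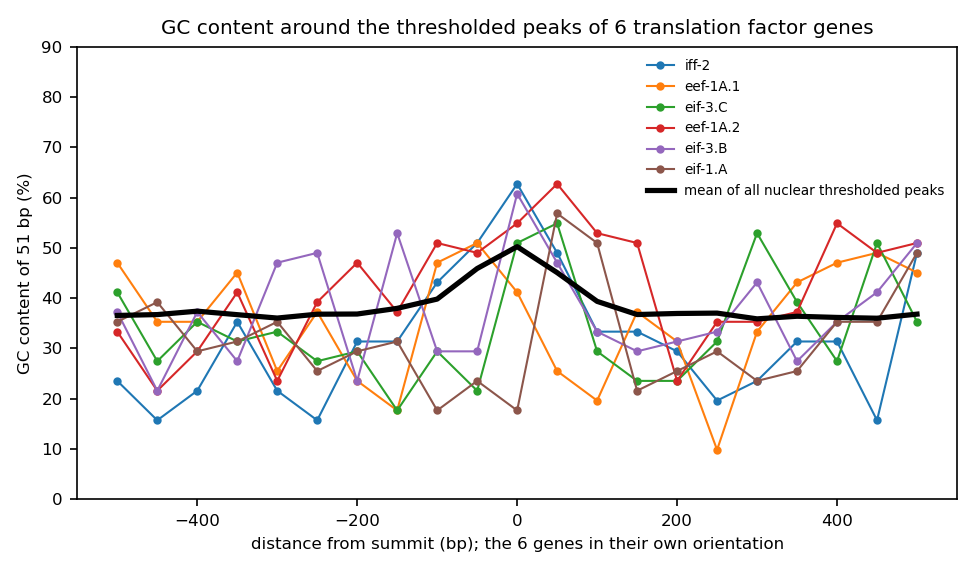
GC content (%) of 51 bp windows against distance from the summit (bp) for the 6 thresholded genes, each in its own orientation (thin lines), and the mean over all 663 nuclear thresholded peaks (thick line). The lines of iff-2 and eif-3.B are each highest at 0, above 60%. Those of eef-1A.2, eif-3.C and eif-1.A are each highest at 50 bp, and that of eef-1A.1 at -50 bp. At 0 the eef-1A.1 line is at 41.2%, lower than at 450 bp. The eif-1.A line is at 17.6% at 0 and 56.9% at 50 bp.

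The deposited lists hold 689 thresholded peaks, of which 663 are nuclear, with signals of at least 30.4. They also hold 30000 ranked regions for each replicate and 30000 for the merged replicates, called the pooled list here. These ranked lists were deposited as peaks and background for input to IDR. A region in them is therefore not by itself a peak, and low-ranked regions can be background. Median signals were 9.73 in the pooled list, 7.30 in replicate 1 and 4.24 in replicate 2, and the lists were not scaled to each other, so signals are compared within a list and ranks between lists. The lists give no read counts, so the depth is unknown and no error can be set on a single signal.

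The share of members with a thresholded peak was 15% (6 of 40, exact 95% binomial interval 5.71% to 29.8%), against a background of 2.49% of all protein-coding genes (498 of 19973). The interval treats genes as independent and the members share no common peak, since 6 distinct peaks were counted. A region of the pooled list lay in the windows of 29 members (72.5%), against 42.2% of all genes. Regions of both replicate lists lay in the windows of 27 members (67.5%), against 23.6% of all genes. When a region went only to the gene with the closest 5' end, 17 members in place of 27 were in both lists. The share of all genes in both lists was not computed under that rule, so 23.6% is no background for the 17. For thresholded peaks the rule lowered the share of all genes from 2.49% to 1.75%. With 1 group and no control libraries in the lists, none of these differences was tested.

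The separate replicates gave fewer and more members at the same depth of list. Among the 689 highest regions of replicate 1, 5 members had a summit in their window (12.5%), against 2.33% of all genes. Among the 689 highest of replicate 2 there were 9 (22.5%), against 2.62%. The genes counted in replicate 2 and not in replicate 1 were eef-1A.2, eef-1B.1, eef-1G and eif-3.E. Only eef-1A.1, eif-3.B, eif-3.C and iff-2 had summits within 100 bp of each other among the highest of both replicates (10% of members), against 1.33% of all genes. With summits within 50 bp the count was 1 (eif-3.B) in place of 4.

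Signal at the members with a region was higher than at the typical gene with one. The median of the highest pooled signal per gene was 17.3 over 29 members and 11.0 over 8420 genes. In replicate 1 the medians were 11.7 over 29 members and 8.28 over 8276 genes, and in replicate 2 they were 8.33 over 32 members and 4.83 over 8471 genes. Among genes with a thresholded peak the median signal was 44.3 for the 6 members and 44.3 for all 498 genes, so the members' peaks were of ordinary height for the list. Genes without a region have no value and are left out of these medians.

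**Figure D2:**
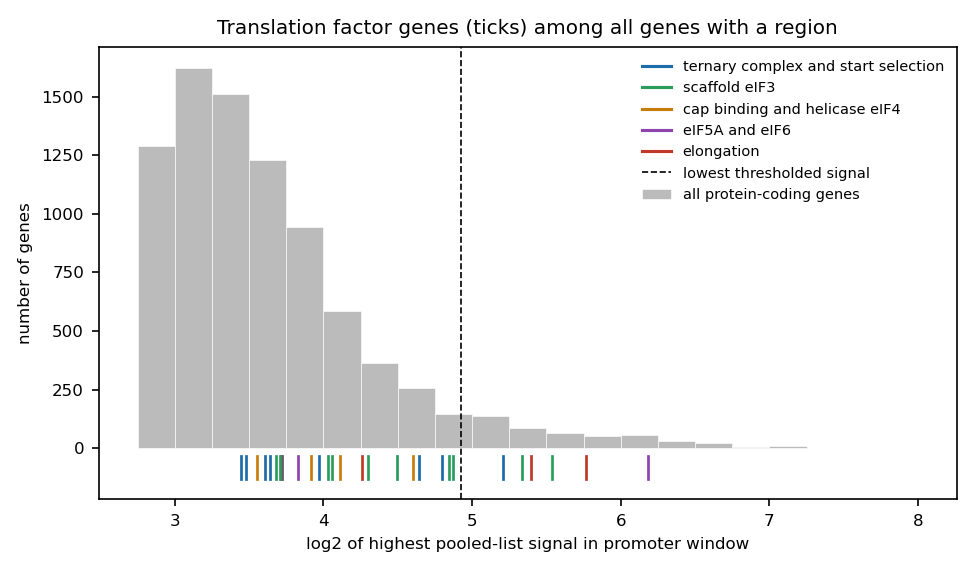
Number of protein-coding genes (grey bars) by log2 of their highest pooled signal in the promoter window, with a tick under the axis for each of the 29 translation factor genes that have a region, coloured by role. The dashed line is the lowest thresholded signal, 30.4: 6 ticks lie to its right, with iff-2 farthest, and 23 to its left.

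The highest member was iff-2, which encodes an eIF5A protein. Its peak on chromosome II (8561274 to 8561613) had a signal of 72.7, rank 134 in the pooled list and rank 84 among the 8420 genes. The signal was 46.8 in replicate 1 (rank 152) and 28.2 in replicate 2 (rank 111). The summit lay 77 bp upstream of the 5' end in sequence between genes, 104 bp upstream in replicate 1 and 24 bp upstream in replicate 2. The only other coding gene whose window takes in this summit is F54C9.14, whose 5' end is 858 bp away on the opposite strand. The other eIF5A gene, iff-1, which is known for its role in the germline, had no pooled and no replicate 1 region, and 1 of signal 4.02 in replicate 2 (rank 16711). So iff-2 had 1 of the highest regions in each list, and iff-1 was listed in replicate 2 alone. The remaining factor of this group, eif-6, which keeps the large ribosomal subunit from joining too early, had a pooled signal of 14.2, with 5.64 in replicate 1 and 8.80 in replicate 2. Its summit is 343 bp upstream of eif-6 and 323 bp upstream of the proteasome subunit gene pbs-2, so the region belongs as much to that gene.

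Both genes for eEF1A, which brings aminoacyl-tRNA to the ribosome, had a thresholded peak. The eef-1A.1 peak on chromosome III (6971882 to 6972221) had a signal of 54.5 (rank 248), with 27.3 in replicate 1 (rank 415) and 27.0 in replicate 2 (rank 129). The eef-1A.2 peak on chromosome X (7823164 to 7823503) had 42.1 (rank 408), with 15.2 in replicate 1 (rank 1403) and 26.7 in replicate 2 (rank 135). The pair thus stood at nearly the same rank in replicate 2 and far apart in replicate 1. Their positions were alike, at 340 bp upstream for eef-1A.1 and 320 bp upstream for eef-1A.2. Their neighbourhoods differed: eef-1A.2 shared its summit with no other coding gene, whereas that of eef-1A.1 is nearer to rfc-4, a replication factor C subunit gene that starts 201 bp away on the opposite strand. The eef-1A.1 summit also falls inside the annotated microRNA gene cel-mir-5549, which lies between both coding genes.

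Signal at the exchange and translocation factors was lower. The eef-1B.1 gene, for an exchange subunit of the beta/delta kind, had a pooled signal of 19.2 with its summit 28 bp upstream. In replicate 2 it had 14.0 (rank 566) within 100 bp of that summit. The 11.2 in replicate 1 stood 167 bp upstream, and no replicate 1 summit lay within 100 bp of the pooled one. The pooled summit is also 303 bp upstream of the aconitase gene aco-2. The gene for eEF2, eef-2, had a pooled signal of 13.1 with its summit 27 bp upstream, and no region in replicate 2. Its highest signal in replicate 1, 9.31, stood 212 bp upstream. The replicate 1 region within 100 bp of the pooled summit had 5.33 (rank 28318). For eef-1G, the gamma subunit, only replicate 2 listed a region, of signal 15.6 (rank 422) and 58 bp upstream, and eef-1B.2 had none in any list. Of the 6 elongation genes 4 had a pooled region, with a median of 30.6, and 3 had regions in both replicates. The shares over all genes were 42.2% and 23.6%, and 6 genes are too few to read a difference from.

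Genes of eIF3, the scaffold, had a pooled region in 10 of 11 cases, against 42.2% of all genes. The same 10 genes had a region in both replicate lists, against 23.6% of all genes, though not always at the same site. The eif-3.K pooled summit had no replicate summit within 100 bp. Those of eif-3.F, eif-3.G and eif-3.I had none within 100 bp in replicate 2. The median pooled signal of the 10 genes was 21.1, against 11.0 over all genes with a region. The peak of eif-3.C on chromosome I (9979760 to 9980099) had a signal of 46.4 (rank 340), with 30.7 in replicate 1 (rank 347) and 15.4 in replicate 2 (rank 438). The peak of eif-3.B on chromosome II (14795004 to 14795343) had 40.3 (rank 438), with 21.0 in replicate 1 (rank 647) and 18.5 in replicate 2 (rank 285). Both genes encode core subunits, and both summits lay upstream, 268 bp for eif-3.C and 230 bp for eif-3.B, in windows that no other coding gene shares. The eif-3.B summits of the replicate lists fell at 230 and 229 bp upstream, the closest placement of any thresholded member. The gene sys-1 ends 133 bp from the eif-3.C summit, on the same strand and upstream of eif-3.C.

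The next eIF3 genes fell just below the lowest thresholded signal. The region of eif-3.E had a signal of 29.3 (rank 728), with 10.5 in replicate 1 (rank 5061) and 21.4 in replicate 2 (rank 216). The region of eif-3.D had 28.7 (rank 750), with 11.9 in replicate 1 (rank 3236) and 12.7 in replicate 2 (rank 701). The replicates therefore placed eif-3.E far apart, high in replicate 2 and low in replicate 1. The eif-3.D summit lies 275 bp upstream of that gene but 39 bp upstream of R08D7.4 on the opposite strand. Below these came eif-3.J with 22.5, eif-3.I with 19.7, eif-3.H with 16.7, eif-3.G with 16.3, eif-3.F with 13.1 and eif-3.K with 12.8. In replicate 1 these 6 genes had signals from 8.08 (eif-3.H) to 15.5 (eif-3.J), and in replicate 2 from 3.47 (eif-3.K) to 8.62 (eif-3.I). The eif-3.L gene alone had no region in any list, and the eif-3.F summit lies in the 3' UTR of the neighbouring gene wbp-2. The eif-3.J summit lay 869 bp upstream, and the eif-3.H summit was nearer to C41D11.3, 85 bp away.

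Among the 12 genes of the ternary complex and start selection, only eif-1.A had a thresholded peak, and the group's median pooled signal was 13.2 over 9 genes. The eif-1.A gene encodes eIF1A, and its peak on chromosome IV (4810319 to 4810658) had a signal of 37.0 (rank 501), with 26.7 in replicate 1 (rank 428) and 13.2 in replicate 2 (rank 642). The pooled and replicate 1 summits lay 445 bp upstream, but the highest replicate 2 summit lay 311 bp upstream, so eif-1.A was the thresholded member whose replicate summits were more than 100 bp apart. Its summit is also in the windows of H06H21.37, 515 bp away, and ubxn-6, 992 bp away. The eif-1 gene, for eIF1, had 10.9, the lowest pooled signal of any member with a region, and the only summit downstream of a 5' end (61 bp).

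The subunits of eIF2 had pooled regions far below the lowest thresholded signal, or none. The beta subunit gene eif-2beta had 13.2 and eif-2gamma 15.6, the last at 971 bp upstream and only 196 bp from tbca-1, a tubulin cofactor gene. The alpha subunit gene eif-2alpha, whose product is the target of the kinases of the integrated stress response, had no region in any list. The factors eif-2D and eif-2A, which are named for other ways of bringing tRNA to the ribosome, ranked 971 and 7824 in the pooled list. The eif-2D region was close to the same rank in both replicates, 15.5 in replicate 1 (rank 1305) and 10.9 in replicate 2 (rank 1035).

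The eIF2B exchange factor ranged from 27.8 for eif-2Bgamma through 12.5 for eif-2Balpha (rank 7267) to no pooled region for eif-2Bdelta and eif-2Bepsilon. The pooled region of eif-2Bbeta ranked 10331, with a signal of 12.2 in replicate 1 and no region in replicate 2. In replicate 2 eif-2Bdelta had 4.28, and eif-2Bepsilon had 8.64 in replicate 1 and 4.78 in replicate 2. The eif-2Bgamma region lies in repeated sequence. Its summit is 788 bp upstream, at the small RNA genes sup-39 and mir-1831 inside an intron of C15F1.5, and 97.1% of the 32-base words under it recur elsewhere in the genome, where reads cannot be placed with certainty. No other member had any recurrent word of that length under its pooled summit. Within 500 bp upstream, the eif-2Bgamma window held another region, of signal 19.7. The highest regions of the replicates stood 889 bp upstream in replicate 1 (19.5) and 157 bp upstream in replicate 2 (8.05).

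None of the 8 genes for cap binding and the eIF4 helicases had a thresholded peak, 4 had a pooled region and 3 were in both replicate lists. Over all genes the shares were 2.49%, 42.2% and 23.6%, so with 8 genes these counts are close to the background. The highest was inf-1, for the helicase eIF4A, with 24.3 at 295 bp upstream, 19.3 in replicate 1 at 302 bp upstream and 5.28 in replicate 2 at 985 bp upstream. The gene for the bridging factor eIF4G, ifg-1, had 11.7, no region in replicate 1 and 3.01 in replicate 2. The eif-4A3 gene, whose human counterpart is the helicase of the exon junction complex, had no region in any list.

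The 5 genes for eIF4E, the cap-binding protein, split among themselves. The somatic forms ife-2 and ife-4 had pooled signals of 15.1 and 17.3. The ife-4 value comes from a summit 533 bp upstream, and within 500 bp upstream and 100 bp downstream its highest signal was 8.55. In replicate 1 ife-2 had 5.74 and ife-4 no region, and in replicate 2 they had 9.14 and 9.12. The forms known mainly from the germline, ife-1, ife-3 and ife-5, had no pooled region, and ife-5 alone was listed in the replicates, with 5.89 in replicate 1 and 2.75 in replicate 2. The entry for ife-3 rests on the edge of the window: a thresholded peak of signal 35.3 on chromosome V (8659 to 8998) has its summit 1001 bp upstream, 1 bp outside it, and nearest to the 5' end of B0348.10. The germline forms iff-1, ife-1, ife-3 and ife-5 had no pooled region and the somatic ife-2, ife-4 and iff-2 did. A pooled region lay at 42.2% of all genes, so most genes have none. These 7 genes were grouped after their values were known and are too few to read a difference from. In whole embryos such a difference cannot be assigned to cell types.

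**Figure D3:**
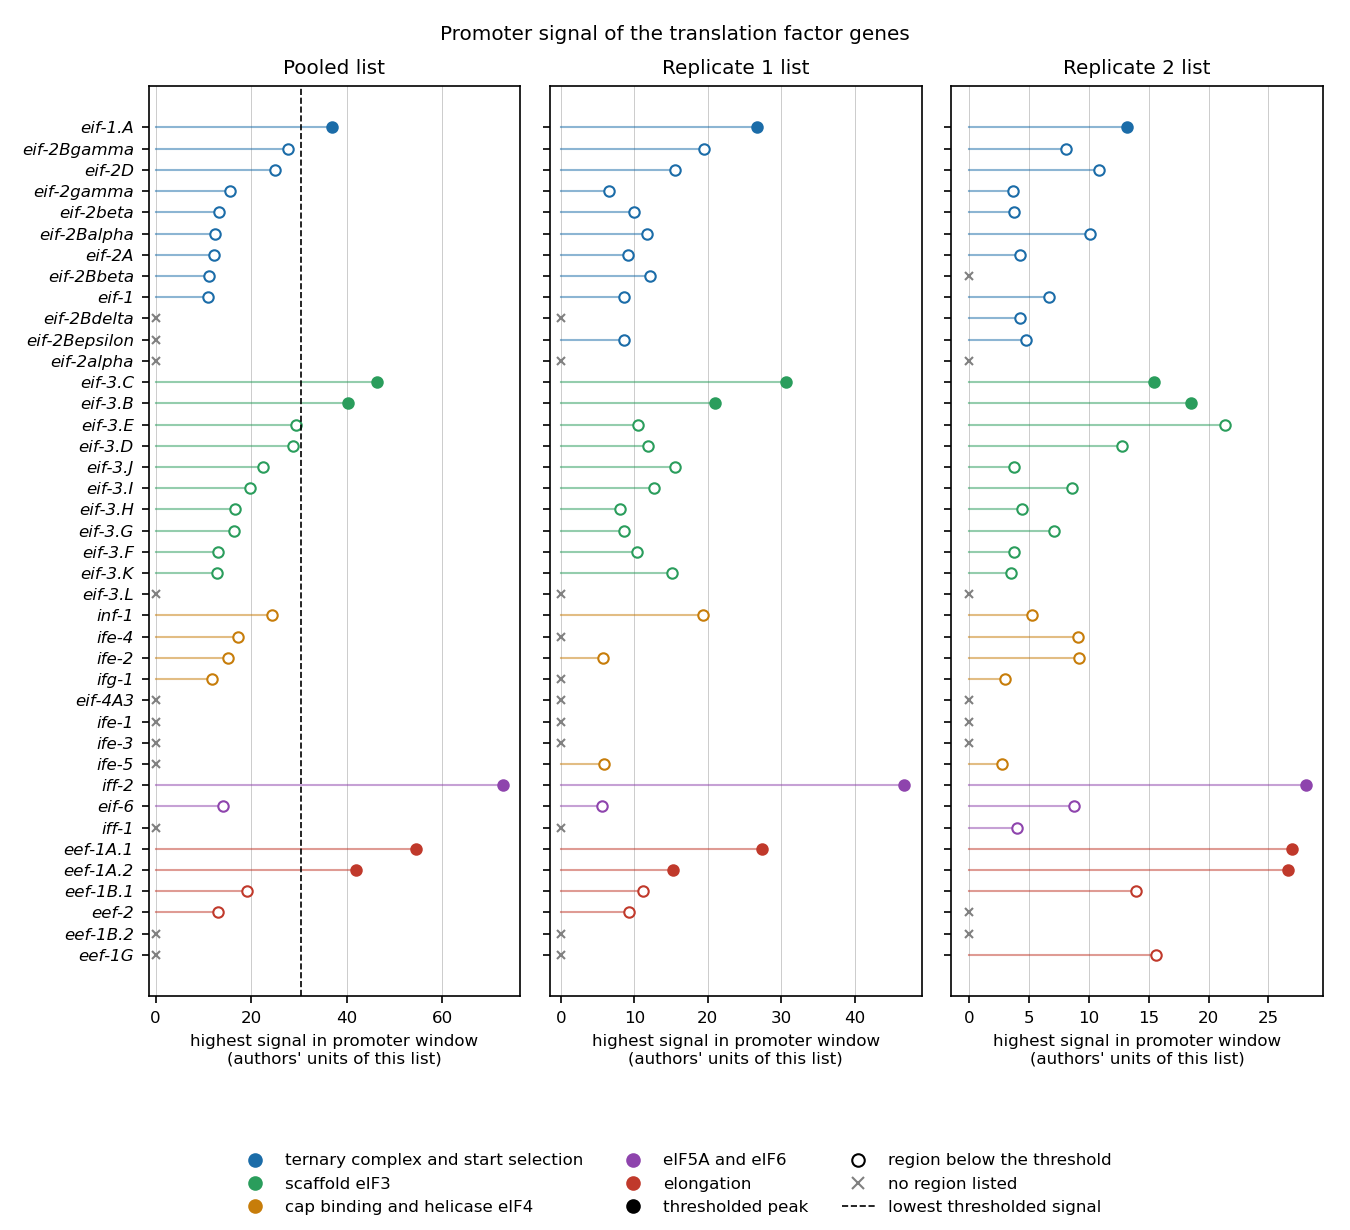
Highest signal in the promoter window (authors' units of each list) for all 40 translation factor genes, grouped by role, in the pooled, replicate 1 and replicate 2 lists; filled points are genes with a thresholded peak, crosses genes with no region listed, and the dashed line the lowest thresholded signal. The 6 filled points lie right of 30.4 in the pooled list, and eef-1G and eif-3.E are high in replicate 2 but absent or low in replicate 1.

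Agreement between replicates was partial below the top. Over the 27 members listed in both, the signal was higher in replicate 1 for 21 and in replicate 2 for 6, but the rank was higher in replicate 1 for 13 and in replicate 2 for 14. Spearman's rho of the signals was 0.54 over these 27 genes, which share libraries and a control and are not independent. The highest summits of the replicates were a median of 152 bp apart, and within 100 bp for 11 of the 27 genes. Of the 29 pooled summits, 22 had a replicate 1 summit within 100 bp, 20 had a replicate 2 summit and 16 had both.

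Nearly all pooled summits of the members lay upstream of their 5' ends, a position that the window favours by design. Most of its length precedes the 5' end, so evenly spread summits would mostly count as upstream too. The upstream shares are therefore not read as a preference, and the same window bounds the distances. They are set beside all genes, measured in the same way, and the differences were not tested. For the pooled list 28 of 29 were upstream (96.6%), against 86.1% of 8420 genes. The median position was 275 bp upstream for the members and 307 bp upstream for all genes, and 23 of the 29 members' summits lay within 500 bp upstream, against 4496 of the 8420 of all genes. For thresholded peaks all 6 members and 97.0% of the 498 genes were upstream, with medians of 294 bp for the members and 263 bp for all genes. By annotation 25 of the 29 summits were intergenic, 3 were in introns and 1 in a 3' UTR, shares that were not computed for all genes. Many messenger RNAs of this species are trans-spliced, so an annotated 5' end can lie downstream of where transcription starts.

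**Figure D4:**
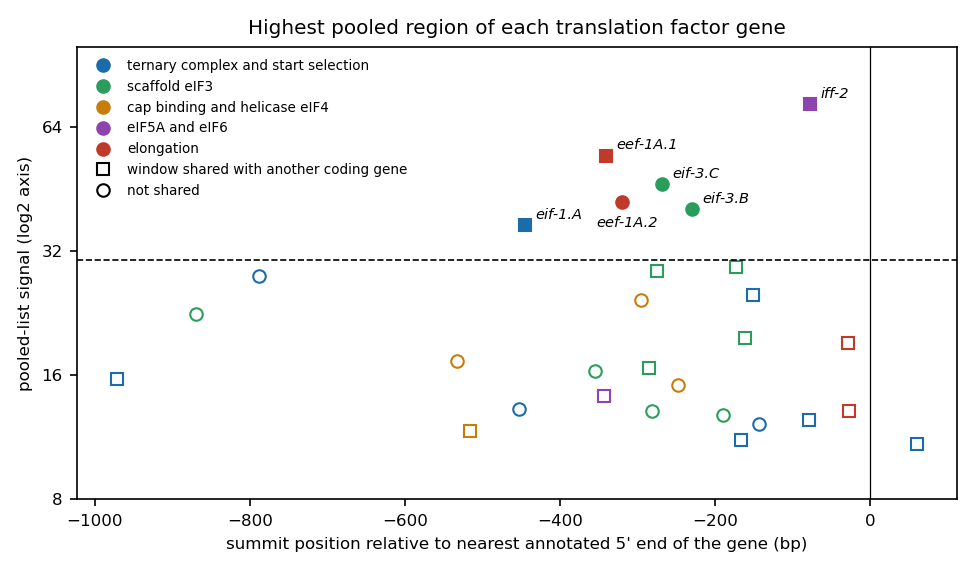
Pooled signal (log2 axis) against the position of the summit relative to the nearest annotated 5' end (bp) for the 29 translation factor genes with a region, coloured by role; squares are summits that lie in the window of another coding gene too, circles those that do not, filled symbols thresholded peaks, and the dashed line the lowest thresholded signal. The filled symbols lie between 445 and 77 bp upstream, and 1 open symbol, eif-1, lies downstream of its 5' end.

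Most of these summits cannot be given to the translation gene alone. Of the 29, 16 also lay in the window of another coding gene, and for 7 another gene's 5' end was nearer. These shares were not computed over all genes with a pooled region, so sharing is not read as a trait of the members. The members without a shared summit among the thresholded ones were eif-3.C, eef-1A.2 and eif-3.B, and for iff-2 and eif-1.A the member was the nearest gene. Among the thresholded members only eef-1A.1 had a summit nearer to another gene. Over all genes, 349 of the 498 with a thresholded peak had the nearest 5' end.

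**Figure D5:**
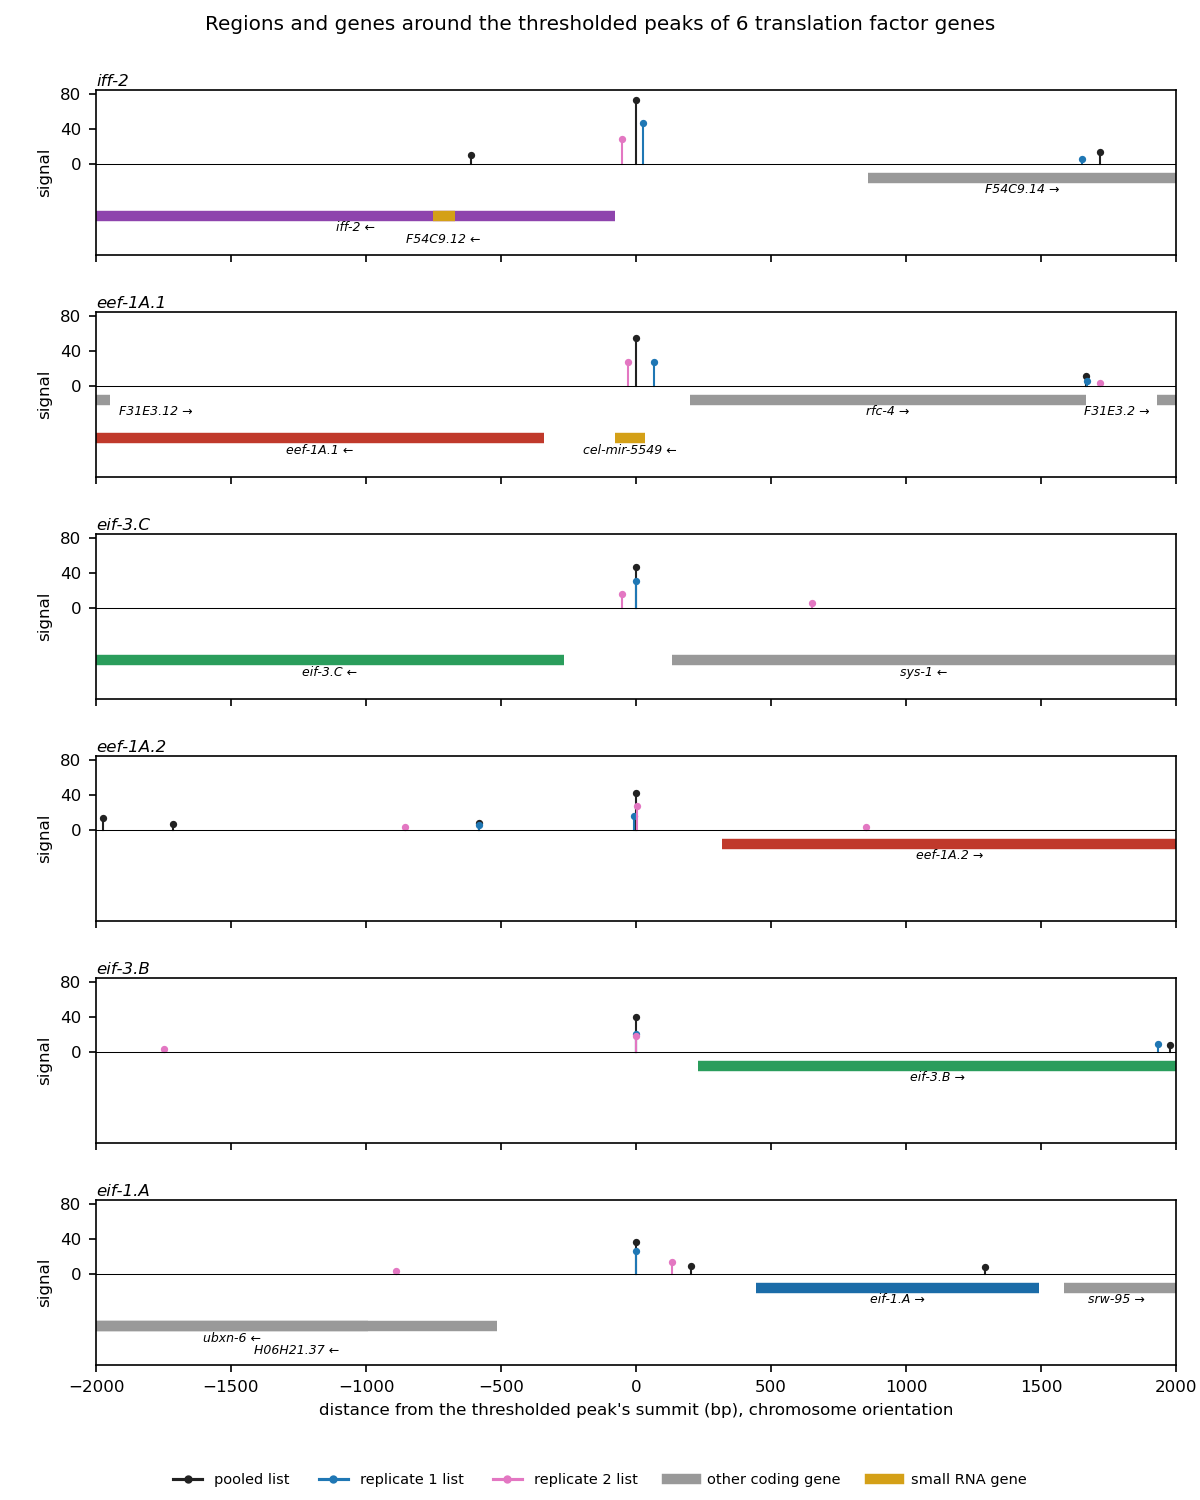
Signal of the listed regions (authors' units, pooled and replicate lists) at their summits, and gene bodies with their direction, within 2000 bp of the thresholded peaks of iff-2, eef-1A.1, eif-3.C, eef-1A.2, eif-3.B and eif-1.A, in chromosome orientation. In each map the pooled summit at 0 is the highest, the highest summit of each replicate lies within 100 bp of it except that of replicate 2 at eif-1.A (134 bp), and cel-mir-5549 spans the summit of eef-1A.1.

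Other genes of translation and its control were listed by hand with earlier results of these data known, and 30 of 31 names were matched. They are therefore not an independent set beside the members, and their counts are a description. A thresholded peak lay at 5 of the 30 (16.7%), against 2.49% of all genes: erfa-3, a release factor gene (86.2), larp-1, for an RNA-binding La-related protein (73.1), ragc-1, for a Rag GTPase of the TOR pathway (70.3), ifet-1, for an eIF4E-binding repressor (69.2), and drr-2 (45.3). A pooled region lay at 20 (66.7%), against 42.2% of all genes, with a median signal of 13.5, against 11.0. In both replicate lists were 11 of the 30, against 23.6% of all genes. The kinase genes efk-1 and let-363, the poly(A)-binding protein gene pab-1 and the release factor gene erfa-1 had no pooled region. Among the thresholded genes of this list, erfa-3 and larp-1 had a higher pooled signal than iff-2, and ragc-1 and ifet-1 lay between iff-2 and eef-1A.1.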

How the data were processed

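ChIP-seq was performed in 1 group of 4 libraries, and the technical libraries of each of the 2 replicates were merged before regions were called, per the deposited notes. A common control served both replicates, per the same notes. Signal values were taken as the authors deposited them in the ce11 lists. Not given in the sources used here are the aligner, the peak caller and the cut-off of IDR. The ce10 lists were not used and no coordinates were converted. Depth is unknown, since the lists hold no counts. All regions fell inside the chromosomes of WBcel235. Genes and 5' ends come from Ensembl release 115 and bases from the RefSeq copy of that assembly. Each gene received the highest signal with a summit in its window. Python 3.11.15, NumPy 2.4.6, SciPy 1.17.1 and matplotlib 3.10.9 were used, and the assignment was checked on simulated placements. Intervals are exact 95% binomial (Clopper-Pearson) intervals and cover counting error alone. No test was made.

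The members, the gene lists and the alternatives were chosen with earlier results of these data known. All members with a thresholded peak, the 10 highest without one and those with no pooled region were named by rule, as were the paralogues, and the other members are given with shorter values. The alternatives changed the window, the link of peak to gene, the peaks kept, the replicates used and the distance for a shared summit.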

Additional observations from a re-analysis of the deposited data

How the results depend on the processing

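The count of members with a thresholded peak was 6 as reported, against 2.49% of all genes. It was 6 with a window of 500 bp upstream and 100 bp downstream (1.93% of all genes) and 7, with ife-3 added, when the window reached 2000 bp upstream (3.41%) or any overlap of peak and window counted (2.77%). It was 5, without eef-1A.1, when a peak went only to the gene with the closest 5' end (1.75%) or when peaks at small RNA genes were left out (2.20%), and 6 when only the farthest upstream 5' end of a gene was used. With the stronger part of the list alone, cut at the median signal, 3 remained (eef-1A.1, eif-3.C and iff-2), against 1.16% of all genes. Replacing the thresholded list by the 689 highest regions of 1 replicate gave counts from 5 (without replicate 2) to 9 (without replicate 1) and background shares from 2.33% to 2.62%. The count without replicate 2 lost eef-1A.2, and that without replicate 1 gained eef-1B.1, eef-1G and eif-3.E. The median signal of the members was 8.33 to 11.7 in the lists of single replicates, against 17.3 in the pooled list, on scales that were not matched. With closest 5' ends alone 17 members, not 27, were in both replicate lists and 22, not 29, had a pooled region. The shares of all genes in these lists were not computed under that rule. The count of members among the highest regions of both replicates was 4 with summits within 100 bp, 1 within 50 bp and 5 within 200 bp. In the shorter window 24 members kept their pooled signal, 2 had a lower one (8.55 in place of 17.3 for ife-4) and 3 had none. The cause of these changes was not tested beyond what each setting does by construction. No paired analysis was possible because there was 1 group. Unknown depth limits every signal: a gene with no listed region may have one below the lowest signals listed, which were 7.02 in the pooled list, 5.14 in replicate 1 and 2.73 in replicate 2.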
